A study of Mus musculus with 6 samples.

Results

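Cholesterol is made from acetyl-CoA, and 28 genes of its synthesis, control, movement and export were followed here in the mouse uterus at gestation day 13. They were taken by symbol from a table of 24964 genes, and all 28 were found in it. The list holds 7 genes of the mevalonate arm, 11 of the sterol arm, 5 that control the pathway through the SREBP proteins and 5 of transport and efflux. Total RNA came from uterus at that stage, in 3 libraries labelled control and 3 labelled as a myometrial knockout of PGR, the progesterone receptor, the myometrium being the muscle layer of the uterus. Strain, age, the alleles and what drives the deletion were not given in the sources used here. As the labels do not say that each library is a separate animal, the p-values cover the spread among the libraries, part or all of which may be technical.

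Cells make isoprenoid units from acetyl-CoA through mevalonate, join them into squalene and close and trim the ring to give cholesterol. When membranes of the endoplasmic reticulum run low in sterol, SCAP carries SREBP proteins to the Golgi, where they are cut and released to switch on the genes of synthesis and uptake, and INSIG proteins hold SCAP back when sterol is plentiful. Excess sterol is sensed as oxysterols by LXR receptors, which switch on the exporters ABCA1 and ABCG1. In pregnancy cholesterol is the starting material of progesterone and a part of every new membrane.

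FPKM values (fragments per kilobase of gene and per unit of sequencing depth) summed to between 357126 and 377091 per library, and the depth of single libraries was not given in the sources used here. Among genes between 0.06 and 0.5 FPKM, the commonest ratio to control 1 was 1 in 4 of the other libraries and slightly above 1 in deficient 2. Transcripts of Pgr were no scarcer under the knockout label, at 9.72, 8.33 and 12.1 FPKM in controls and 11.3, 12.4 and 7.73 FPKM in the deficient-labelled libraries (exact two-sided permutation p = 0.9, smallest possible 0.1). Which part of the gene was deleted was not given, and other uterine cells also express Pgr, so every direction below rests on the label. The 8 smooth muscle markers summed to between 8070 and 9848 FPKM in controls and between 3261 and 3845 FPKM in the deficient-labelled libraries, and all 8 fell (limma, adjusted p between 0.0030 and 0.014). Of 7 epithelial markers tested 2 rose with limma, 4 had an unadjusted p under 0.05, all higher, and 1 had a negative difference. Of the 8 listed, 3 lay higher without overlap, as 20.8% of all genes tested did. Their sum ran from 27192 to 38658 FPKM in controls and from 22840 to 37704 FPKM in the other group. Of 8 macrophage and 7 endothelial markers 0 passed in either direction with limma (0 and 1 at an unadjusted p under 0.05). The decidual markers summed to between 198.3 and 484.6 FPKM in controls and between 95.8 and 130.4 FPKM in the other group. Of 6 tested 1 fell, Fst (-1.17, limma adjusted p = 0.019), while Prl8a2, with the larger difference of -4.50, did not pass (limma adjusted p = 0.089). At an unadjusted limma p under 0.05 there were 3 of 6, all lower, against 21.5% of all genes in either direction. Of the 7 found, 3 lay lower and 2 higher without overlap, as 8.16% and 20.8% of all genes tested did. The 1 erythroid marker tested, Alas2, rose (1.93, limma adjusted p = 0.029), with 3 globin genes listed at 0 throughout. Fibroblast and stromal markers summed to between 6097 and 6621 FPKM in controls and between 5387 and 5567 FPKM in the other group. Of these 8, 5 lay lower without overlap, as 8.16% of all genes tested did, though 0 passed with limma. At an unadjusted p under 0.05 there were 5 of 8, 4 of them lower, against 21.5% of all genes. Trophoblast and yolk sac markers summed to between 0.336 and 2.06 FPKM, with Gcm1 and Apoa4 at 0 throughout. In whole tissue, fewer cells of a type and less RNA per cell cannot be told apart, and what part these marker differences have in the values below was not tested.

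None of the 28 genes passed the test between the groups, and many of them shared their highest and lowest libraries. The enzymes of synthesis stood highest in 1 control library, control 2, which held the highest of the 6 values for 21 of the 28 genes (75%), against 17.2% of the 12500 genes tested. Deficient 3 held the lowest value for 18 of the 28 (64.3%), against 13.9% of all genes. Abca1, an exporter, ran the other way, with its lowest value in control 2 and its highest in deficient 3. Of all genes tested, 16.1% were lowest in control 2 and 24.2% highest in deficient 3. Abcg1, the other exporter, was also highest in deficient 3 but lowest in control 1. The promoters of the genes that stood out most in control 2 are shown next.

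Promoter windows, from 250 bases before to 50 bases after a gene's annotated start, were found for 22 of the 28 genes in RefSeq (GRCm38.p6). Those of Fdft1, Fdps, Sqle, Stard4, Abcg1 and Npc1 were not used here. SREBP proteins bind sterol response elements next to sites for NF-Y, a factor that reads CCAAT, and Sp1, which reads GGGCGG. The letters CCAAT, on either strand, were in the windows of 19 of the 22 genes (86.4%), against 41.06% of 27025 genes with a window and 42.13% of 9690 of them that entered the test here. GGGCGG was in 21 of 22 (95.5%), against 38.2% and 69.07%. The E-box CACGTG was in 6 of 22 (27.3%), against 8.09% and 11.85%. The sterol response element spelled TCACNCCAC was found in 1, Hmgcs1, at positions -137 to -129 with the start counted as 0, and in 1.44% and 1.32% of the same 2 sets. Both strands were searched, overlaps between motifs were allowed, and genes with several windows had more chances of a match. A match describes letters and is not a bound site.

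The 250 bases before the start are printed for the 4 genes with a single window whose level in control 2 was furthest above the other controls, and for Abca1 as the gene that ran the other way. They are read 5′ to 3′ on the gene's strand, and capitals mark CCAAT, its reverse ATTGG and the sterol response element. Hsd17b7 is at chr1:169969206-169969455 on the minus strand, Cyp51 at chr5:4104698-4104947 on the minus strand, Hmgcs1 at chr13:119690101-119690350 on the plus strand, Msmo1 at chr8:64733579-64733828 on the minus strand and Abca1 at chr4:53159896-53160145 on the minus strand.
Hsd17b7: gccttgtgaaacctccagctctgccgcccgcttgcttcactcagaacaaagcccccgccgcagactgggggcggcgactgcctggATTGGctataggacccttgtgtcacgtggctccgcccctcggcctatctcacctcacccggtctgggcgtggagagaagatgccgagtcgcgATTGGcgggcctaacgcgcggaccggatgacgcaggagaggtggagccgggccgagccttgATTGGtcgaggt
Cyp51: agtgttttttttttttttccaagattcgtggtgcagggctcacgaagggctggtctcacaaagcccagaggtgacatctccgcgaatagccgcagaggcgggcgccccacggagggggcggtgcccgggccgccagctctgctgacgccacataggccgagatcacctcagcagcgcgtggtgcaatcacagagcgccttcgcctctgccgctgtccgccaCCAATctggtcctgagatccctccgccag
Hmgcs1: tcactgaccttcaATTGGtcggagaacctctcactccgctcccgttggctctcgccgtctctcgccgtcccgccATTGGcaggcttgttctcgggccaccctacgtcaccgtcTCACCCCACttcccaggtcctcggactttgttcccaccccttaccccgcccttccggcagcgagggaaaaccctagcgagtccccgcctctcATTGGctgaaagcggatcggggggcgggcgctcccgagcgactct
Msmo1: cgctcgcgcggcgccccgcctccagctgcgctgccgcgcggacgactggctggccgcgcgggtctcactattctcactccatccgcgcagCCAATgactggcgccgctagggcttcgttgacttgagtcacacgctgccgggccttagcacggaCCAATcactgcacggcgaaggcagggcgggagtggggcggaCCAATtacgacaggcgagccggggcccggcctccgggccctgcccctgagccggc
Abca1: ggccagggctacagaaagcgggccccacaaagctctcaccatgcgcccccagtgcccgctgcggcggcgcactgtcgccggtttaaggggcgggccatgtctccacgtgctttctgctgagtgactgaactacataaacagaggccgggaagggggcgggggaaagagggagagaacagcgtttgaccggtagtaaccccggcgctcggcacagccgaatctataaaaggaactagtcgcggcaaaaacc
CCAAT or its reverse occurred 3 times upstream of Hsd17b7, Hmgcs1 and Msmo1, 1 time upstream of Cyp51 and 0 times upstream of Abca1, which held 2 copies of GGGCGG and 1 E-box. The windows of Acat2 and Scap also lacked CCAAT, and in control 2 these genes were at 1.38 and 1.02 times the mean of the other controls. Insig2 and Npc2 held it and were at 1.04 and 0.997 times. Whether these letters go with the level in control 2 was not tested.

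**Figure D1:**
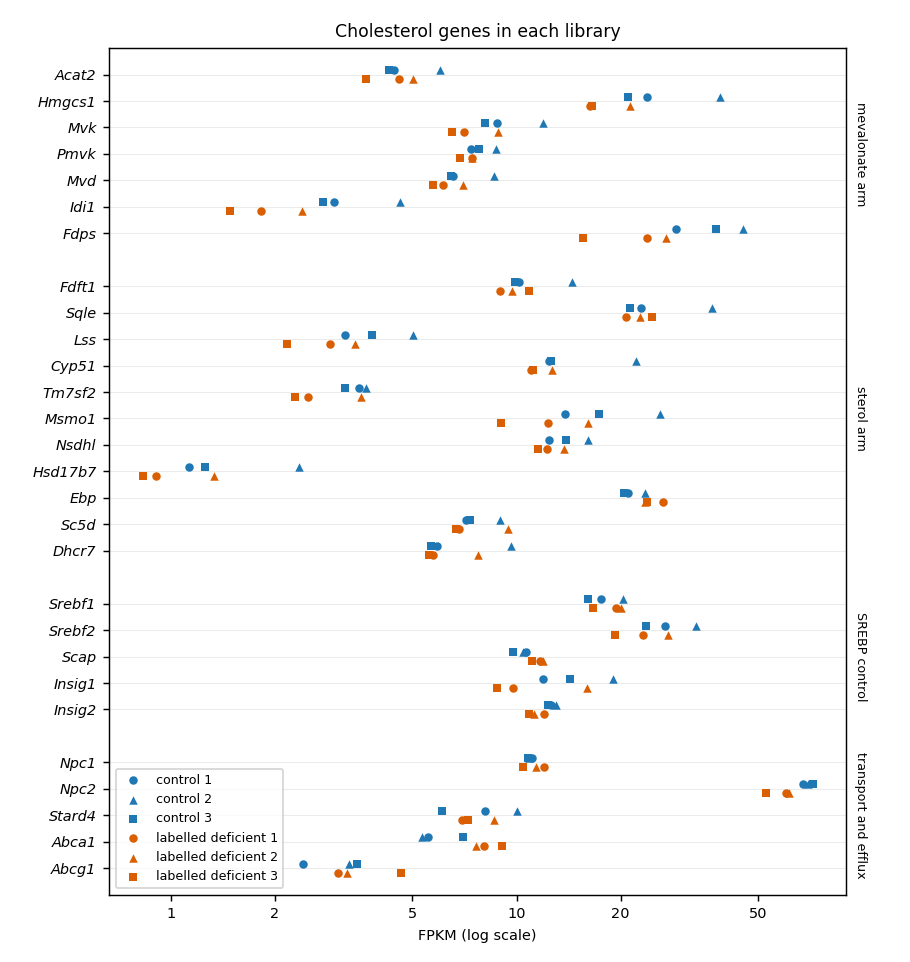
Level of each of the 28 genes in FPKM (log axis) in the 6 libraries, blue for controls and orange for libraries labelled deficient, with the shape giving the replicate. The blue triangle of control 2 lies to the right of the other controls for all 18 enzymes, and all 3 orange points of Abca1 lie to the right of the blue.

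Across the pathway the deposited levels, which are per length and so can be set beside each other, ran from 1.30 FPKM for Hsd17b7 to 63.8 FPKM for Npc2 as means of the 6 libraries. Among the enzymes, Fdps (29.8 FPKM), Sqle (24.9 FPKM), Ebp (23.1 FPKM) and Hmgcs1 (23.0 FPKM) were the most abundant. Idi1 (2.67 FPKM), Tm7sf2 (3.11 FPKM) and Lss (3.42 FPKM) were the scarcest after Hsd17b7. All 28 had a mean of at least 1 FPKM and entered the test.

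With limma, 0 of the 28 passed an adjusted p of 0.05, against 3.34% of the 12500 genes tested. At an unadjusted p under 0.05 there were 6 (4 lower and 2 higher in the deficient-labelled libraries), or 21.4%, which is the share over all genes, 21.5%. For 6 genes (21.4%) the groups did not overlap, against 29.0% of all genes. Idi1, Fdps, Npc2 and Insig2 lay lower in that way (8.16% of all genes did) and Abca1 and Scap higher (20.8% of all genes). The totals of 6 are at or under the background. The sign of the difference was negative for 22 of 28 (78.6%), against 35.1% of all genes, and the median difference in log2(FPKM + 1) was -0.18 against 0.06 over all genes. Genes of 1 pathway share their regulation and their libraries, so these 28 signs are not independent. The median was -0.066 with control 2 left out, against 0.074 over all genes. With control 2 and deficient 3 left out together, a choice made after seeing the data, it was -0.022 against 0.072. Of the 28 genes, 24 lay under the all-gene median with all libraries, 21 without control 2 and 18 without both. Control 2 was the highest control for all 18 enzymes of synthesis, so leaving it out could only raise their differences. Deficient 3 held the lowest of the 6 values for 18 of the 28 genes, so leaving it out could likewise only raise theirs. The shift of the median without both was thus largely set by the choice of libraries.

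**Figure D2:**
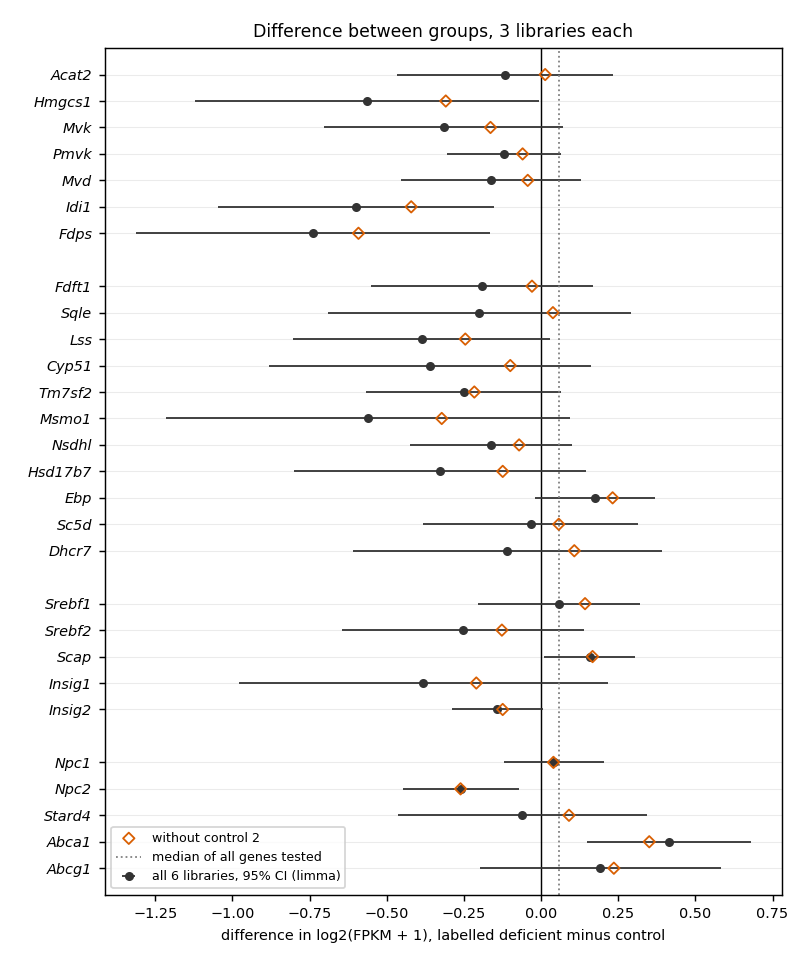
Difference in log2(FPKM + 1) between the groups, labelled deficient minus control, for each gene with its 95% confidence interval from limma (3 libraries per group, black), the estimate without control 2 (open orange diamonds) and the median of all genes tested (dotted line). Without control 2 the estimates of all 18 enzymes lie further to the right, while those of Npc1, Npc2 and Scap nearly coincide with the full ones. As control 2 was the highest control for all 18 enzymes, the direction of their shift was fixed in advance.

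Among the mevalonate genes, all 7 had a negative difference, from -0.74 for Fdps to -0.12 for Acat2. Fdps makes farnesyl diphosphate, the last step before the path to sterols splits from those to dolichol, ubiquinone and prenylated proteins. It lies on chromosome 3 from 89093588 to 89101959 (GRCm38, minus strand). Its level was 28.9, 45.3 and 37.8 FPKM in controls and 23.9, 27.1 and 15.5 FPKM in the deficient-labelled libraries. All 3 of the latter lay under the lowest control, control 1, by a small margin for deficient 2. The means were 37.4 ± 8.2 and 22.2 ± 6.0 FPKM (SD, n = 3 each), and the log2 difference was -0.74 with a 95% confidence interval from -1.31 to -0.17 (limma adjusted p = 0.16).

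Idi1, the isomerase that makes the reactive isoprene unit, was at 2.96, 4.59 and 2.75 FPKM in controls and 1.83, 2.40 and 1.48 FPKM in the deficient-labelled libraries. The groups did not overlap, and the mean was 0.554 times that of controls. The log2 difference was -0.60 (95% confidence interval -1.05 to -0.15, limma adjusted p = 0.15), and it was -0.42 without control 2 and -0.72 without deficient 2. Its transcript shares stretches of at least 200 bases at 95% identity or more with 2 processed pseudogenes, Gm13502 and Gm35570, and the handling of shared reads was not given in the sources used here.

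Hmgcs1, the cytosolic synthase that makes HMG-CoA, carries the sterol response element printed above. It was at 23.9, 38.9 and 21.0 FPKM in controls and 16.3, 21.3 and 16.6 FPKM in the deficient-labelled libraries. Control 2 stood far above every other library, and deficient 2 lay just over the lowest control. The log2 difference of -0.56 (95% confidence interval -1.12 to -0.01, limma adjusted p = 0.23) was -0.31 without control 2 and -0.74 without control 3. An antisense gene, Gm48342, shares 462 bases with Hmgcs1. The kinases Mvk and Pmvk and the decarboxylase Mvd, which turn mevalonate into the isoprene unit, had differences of -0.32, -0.12 and -0.16, which were -0.16, -0.060 and -0.043 without control 2. Acat2, the cytosolic thiolase of the first step, was at 4.42, 6.01 and 4.27 FPKM in controls and 4.58, 5.01 and 3.67 FPKM in the other group, so the groups overlapped widely. Without control 2 its difference was 0.013. Acat3, a neighbouring gene, shares 1477 bases with Acat2 at 97.7% identity and was at a mean of 0.298 FPKM, and Tcp1, a chaperonin gene, shares 445 bases at 98.7% identity and was at a mean of 79.4 FPKM against 4.66 FPKM for Acat2. Without knowing how shared reads were assigned, the level of Acat2 is uncertain.

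Among the 11 sterol genes, 10 had a negative difference and Ebp a positive one, and the groups overlapped for all 11. Msmo1, the oxidase that strips methyl groups from the sterol ring, was at 13.8, 26.0 and 17.3 FPKM in controls and 12.3, 16.1 and 9.01 FPKM in the deficient-labelled libraries. Its highest value was again in control 2 and its lowest in deficient 3. The log2 difference was -0.56 (95% confidence interval -1.21 to 0.10, limma adjusted p = 0.30) with all libraries, -0.32 without control 2, -0.36 without deficient 3 and -0.12 without both. The Msmo1 transcript shares stretches of 200 to 203 bases with 10 other genes, among them Map4 (mean 22.5 FPKM) and Taf1d (mean 13.7 FPKM).

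Cyp51, the demethylase of lanosterol, was at 12.4, 22.2 and 12.6 FPKM in controls and 11.03, 12.6 and 11.2 FPKM in the deficient-labelled libraries. Apart from control 2 the libraries lay within 11.03 to 12.6 FPKM. Its log2 difference was -0.36 (95% confidence interval -0.88 to 0.16), and -0.10 without control 2. Akap9 lies on the opposite strand over part of Cyp51, as do other genes over 9 more of the 28 (among them Hmgcs1, Idi1, Lss, Mvd, Npc1, Scap and Srebf1), and strandedness was not given in the sources used here.

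Sqle, the epoxidase that commits squalene to sterols, was at 22.9, 36.9 and 21.3 FPKM in controls and 20.8, 22.8 and 24.7 FPKM in the deficient-labelled libraries. Unlike most enzymes it was highest in deficient 3 within its group. The log2 difference of -0.20 (95% confidence interval -0.69 to 0.29) turned to 0.038 without control 2. Fdft1, the squalene synthase, was at 10.1, 14.4 and 9.91 FPKM in controls and 8.97, 9.67 and 10.8 FPKM in the other group, where deficient 3 was again highest. Its difference of -0.19 was -0.030 without control 2. Part of Fdft1 lies over Ctsb on the opposite strand, and the 2 transcripts share 774 bases at full identity. Ctsb, a lysosomal protease, had a mean of 1832 FPKM, so without strand the level of Fdft1 cannot be taken as its own. Fdft1 also shares 1249 bases at 97.4% identity with a processed pseudogene, Gm6781.

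Lss, which closes the ring to lanosterol, was at 3.18, 5.02 and 3.83 FPKM in controls and 2.90, 3.41 and 2.17 FPKM in the other group, with a log2 difference of -0.39 (95% confidence interval -0.80 to 0.03) that was -0.25 without control 2 and -0.26 without deficient 3. Hsd17b7, the reductase that acts after the methyl groups are removed, was the scarcest gene, at 1.13, 2.35 and 1.26 FPKM in controls and 0.908, 1.33 and 0.829 FPKM in the deficient-labelled libraries. Its difference of -0.33 was -0.54 with a pseudocount of 0.1, -0.12 without control 2 and -0.055 without control 2 and deficient 3. Tm7sf2, a sterol reductase, had a difference of -0.25 and Nsdhl, a dehydrogenase of the same demethylation, one of -0.16. Nsdhl was at -0.071 without control 2 and -0.25 without control 1, and Tm7sf2 at -0.39 without deficient 2 and -0.16 without deficient 3.

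At the last steps of the pathway the signs were mixed. Sc5d, a desaturase, and Dhcr7, whose loss in people causes Smith-Lemli-Opitz syndrome, had differences of -0.03 and -0.11, which were 0.057 and 0.11 without control 2. Ebp, the sterol isomerase, was at 21.1, 23.5 and 20.5 FPKM in controls and 26.5, 23.5 and 23.8 FPKM in the deficient-labelled libraries. These groups overlapped only through control 2 and deficient 2, which were at nearly the same level. The log2 difference of Ebp was 0.17 (95% confidence interval -0.02 to 0.37, limma adjusted p = 0.28) and 0.23 without control 2.

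**Figure D3:**
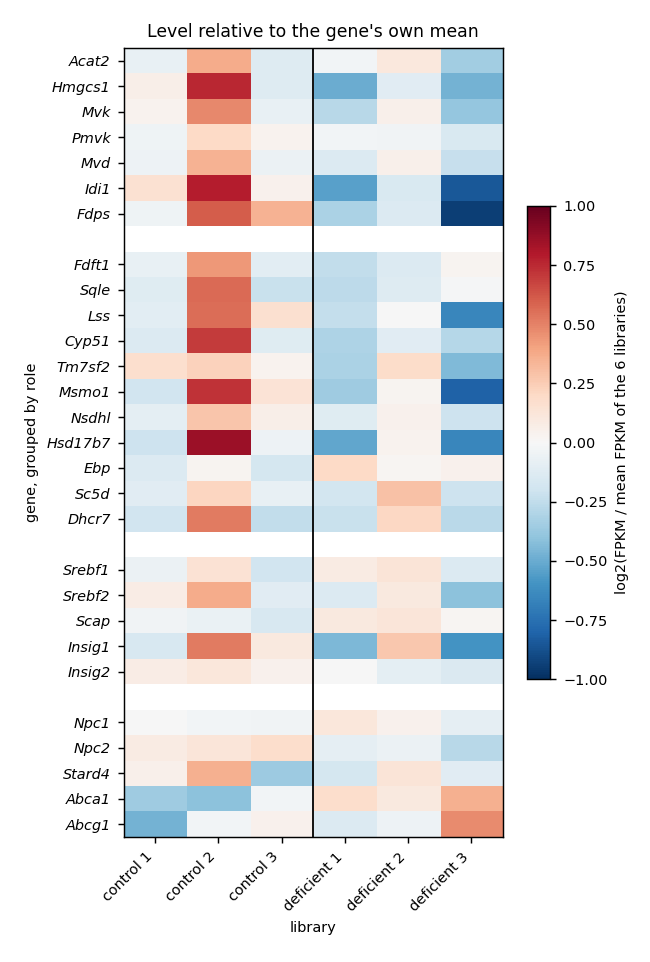
Level of each gene in each library relative to that gene's own mean of the 6 libraries, on a log2 scale from red (above) to blue (below), with genes in the order of the pathway. The column of control 2 is red through most enzymes, Srebf2, Insig1 and Stard4, that of deficient 3 is blue through most of them, and Abca1 is blue in control 2 and red in deficient 3.

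The 5 control genes did not share 1 pattern. Insig1, whose transcription SREBP drives as a feedback brake, was at 11.9, 19.1 and 14.2 FPKM in controls and 9.75, 16.0 and 8.79 FPKM in the deficient-labelled libraries. Its spread within each group, 1.60-fold and 1.82-fold from lowest to highest, exceeded the difference between group means. The log2 difference of -0.38 (95% confidence interval -0.98 to 0.22) was -0.21 without control 2, -0.23 without deficient 3, -0.055 without both and -0.62 without deficient 2. Insig2, the other gene of this brake, was at 12.6, 13.0 and 12.4 FPKM in controls and 12.02, 11.3 and 10.9 FPKM in the other group. The groups did not overlap, but the difference was small at -0.14 (95% confidence interval -0.29 to 0.01, limma adjusted p = 0.25).

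Srebf2, the SREBP gene mainly tied to cholesterol synthesis, was at 26.9, 33.1 and 23.7 FPKM in controls and 23.2, 27.4 and 19.2 FPKM in the deficient-labelled libraries, with a log2 difference of -0.25 (95% confidence interval -0.64 to 0.14). That difference was -0.13 without control 2, -0.13 without deficient 3 and -0.0024 without both. Srebf1, more tied to fatty acid synthesis, was at 17.6, 20.3 and 16.0 FPKM in controls and 19.4, 20.1 and 16.7 FPKM in the other group. Its difference was 0.06, and it was negative with median-of-ratios scaling (-0.010) and without control 3 (-0.017). Scap, the carrier of both, was at 10.6, 10.4 and 9.77 FPKM in controls and 11.7, 11.9 and 11.1 FPKM in the deficient-labelled libraries. These groups did not overlap, with a difference of 0.16 (95% confidence interval 0.01 to 0.31, limma adjusted p = 0.21) that stayed between 0.092 and 0.21 under every alternative run. A gene on the opposite strand, 5830462I19Rik, shares 223 bases with Scap.

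Of the transport and efflux genes, Abca1 had the smallest p of all 28. ABCA1 loads cholesterol onto lipid-poor apolipoprotein to start high-density lipoprotein. The gene lies on chromosome 4 from 53030787 to 53159895 (GRCm38, minus strand). It was at 5.55, 5.34 and 6.99 FPKM in controls and 8.04, 7.62 and 9.08 FPKM in the deficient-labelled libraries. The groups did not overlap, control 3 being the highest control and deficient 2 the lowest of the others. The mean was 1.38 times that of controls, with a log2 difference of 0.41 (SE 0.11, 95% confidence interval 0.15 to 0.68, limma adjusted p = 0.11). It passed in 2 of 19 alternatives, with array weights (0.45, limma adjusted p = 0.017) and with the third library of both groups left out (0.45, limma adjusted p = 0.029). In these settings 14.2% and 10.2% of all genes tested passed, against 3.34% in the main fit. Over all alternatives the difference of Abca1 ran from 0.29 to 0.52 and the adjusted p from 0.017 to 0.41. Macrophages also express Abca1, and the 8 macrophage markers summed to between 1029 and 1224 FPKM in controls and between 1068 and 1188 FPKM in the other group. What part macrophages have in the level of Abca1 was not tested.

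Abcg1, which passes cholesterol to mature lipoprotein, was at 2.41, 3.27 and 3.45 FPKM in controls and 3.04, 3.23 and 4.65 FPKM in the deficient-labelled libraries. Its difference of 0.19 (95% confidence interval -0.20 to 0.58) was 0.042 without deficient 3 and 0.074 without control 1, its lowest library. Npc1 and Npc2, the pair that hands cholesterol out of the lysosome, had different patterns. Npc2 was at 67.4, 69.5 and 71.9 FPKM in controls and 60.1, 61.4 and 52.8 FPKM in the deficient-labelled libraries, without overlap and with a difference of -0.26 (95% confidence interval -0.45 to -0.07, limma adjusted p = 0.14). Npc1 was at 11.1, 10.9 and 10.8 FPKM in controls and 12.03, 11.4 and 10.4 FPKM in the others, with a difference of 0.04 (95% confidence interval -0.12 to 0.20). Stard4, a carrier of cholesterol in the cytosol and known as an SREBP target, was at 8.11, 10.02 and 6.09 FPKM in controls and 6.94, 8.58 and 7.24 FPKM in the others. Its difference of -0.06 ran from -0.23 without control 3 to 0.090 without control 2.

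The height of control 2 was measured as its level over the mean of controls 1 and 3. That ratio was above 1 for all 18 enzymes, from 1.09 for Tm7sf2 to 1.97 for Hsd17b7, with a median of 1.42 against 1.03 over all genes tested. Of the 28 genes, 13 lay in the top 5% of all genes by this ratio, among them 11 enzymes, Insig1 (1.46) and Stard4 (1.41). Srebf2 had a ratio of 1.31 and Srebf1 of 1.20. Scap (1.02), Insig2 (1.04), Npc1 (0.997) and Npc2 (0.997) were at the level of the other controls, and Abca1 was below it (0.851). That put Abca1 at percentile 7.62 of all genes tested, while Abcg1 had a ratio of 1.12. Control 2 was the highest control for 23 of the 28 (82.1%), against 39.0% of all genes, and for 22 or 23 under each of the other scalings.

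In the deficient-labelled libraries, deficient 2 held the highest of the 3 values for 20 of the 28 genes (71.4%), against 39.4% of all genes. Its level over the mean of deficient 1 and 3 was 1.72 for Insig1, 1.54 for Hsd17b7, 1.51 for Msmo1 and 1.45 for Idi1. For Sqle it was 1.00 and for Fdft1 0.977. Deficient 3 lay at 0.609 times the mean of deficient 1 and 2 for Fdps, at 0.634 for Msmo1 and at 0.683 for Insig1, but at 1.13 for Sqle and 1.48 for Abcg1. The second libraries of the groups share a number in the labels, but nothing says that it marks a shared litter, day or batch. Over all genes their deviations from the group means had a correlation of only 0.079, though it was the highest that either had with the other group. The macrophage markers also had their highest sum in the second library of each group, 1224 FPKM in control 2 and 1188 FPKM in deficient 2. So did the decidual markers, at 484.6 and 130.4 FPKM. By single markers, control 2 was the highest control for 7 of 8 macrophage genes (87.5%) but 2 of 7 decidual ones (28.6%), against 39.0% of all genes. Deficient 2 was the highest of its group for 5 of 8 (62.5%) and 4 of 7 (57.1%), against 39.4%. The smooth muscle sum of control 2, 9270 FPKM, lay between those of the other controls, while that of deficient 2, 3845 FPKM, was the highest of its group, as were 7 of the 8 single markers (87.5%). What part cell make-up has in the pattern was not tested.

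**Figure D4:**
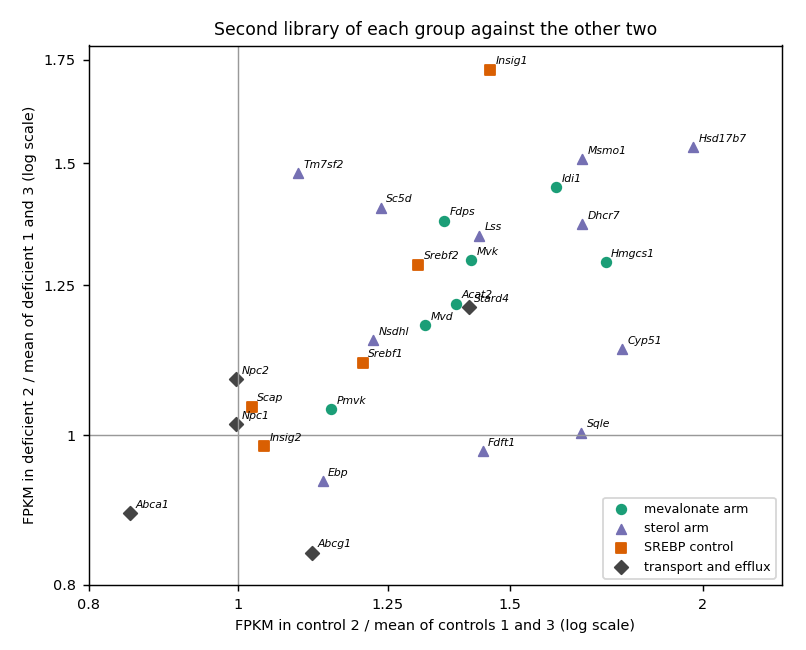
For each of the 28 genes, the level in control 2 over the mean of controls 1 and 3 (horizontal, log axis) against the level in deficient 2 over the mean of deficient 1 and 3 (vertical, log axis), with shape and colour giving the role. Most enzymes, Insig1, Srebf2 and Stard4 lie above 1 on both axes, Sqle at about 1 on the vertical axis, Fdft1 and Ebp below 1 on it, and Abca1 below 1 on both.

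Few other genes of the pathway passed the test, which 3.34% of all genes tested passed. Of 14 genes of SREBP cleavage, sterol sensing and degradation listed, 13 were tested and 1 rose, Mylip, an E3 ligase induced by LXR that marks lipoprotein receptors for breakdown. Mylip was at 8.27, 7.21 and 8.32 FPKM in controls and 12.8, 12.5 and 12.2 FPKM in the deficient-labelled libraries, without overlap, and its limma estimate was 0.60 on the log2 scale (SE 0.07, adjusted p = 0.013). It was no longer called without control 1 (adjusted p = 0.056) or deficient 1 (0.064), and the highest adjusted p over all alternatives was 0.16. Among 12 genes of sterol transport between membranes tested, 1 rose, Gramd1b, a carrier of cholesterol from the plasma membrane to the endoplasmic reticulum, from 3.53 ± 0.52 to 6.85 ± 0.99 FPKM (SD, n = 3 each, limma adjusted p = 0.030). Its call was lost in 5 of 6 fits with 1 library left out (the exception left out deficient 3), where its adjusted p reached 0.12. The next genes of these lists by p were Erlin2 (0.21), Faf2 (0.16) and Nr1h2 (0.13), and Cav1, the coat protein of caveolae, which smooth muscle also expresses (-0.64, limma adjusted p = 0.052, and between 0.0052 and 0.37 over the alternatives, passing in 6 of 19), Osbpl2 (0.17) and Stard3nl (-0.25), as log2 differences. The median differences of these 2 lists were 0.07 and 0.11.

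With limma, 0 genes passed among 6 further enzymes, 5 of ester storage, 7 of lipoprotein uptake, 5 of efflux, 13 of the isoprenoid branch, 14 of fatty acid synthesis and 7 of oxysterol and steroid synthesis. At an unadjusted p under 0.05 these lists had 1, 1, 3, 0, 0, 2 and 0 genes, where the share over all genes tested was 21.5%. Their medians lay between -0.09 and 0.12, where the 18 enzymes of synthesis had -0.22. The fatty acid genes had a median control 2 ratio of 1.18, with 3 of 14 in the top 5% of genes, and the isoprenoid genes one of 1.04, with 0 of 13. Control 2 was the highest control for 11 of 14 fatty acid genes (78.6%), 5 of 6 ester storage genes listed (83.3%) and 4 of 13 isoprenoid genes (30.8%). Deficient 2 was the highest of its group for 11 (78.6%), 4 (66.7%) and 6 (46.2%). The shares over all genes were 39.0% and 39.4%.

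Genes among those with the smallest p in the remaining lists are given by their log2 difference, and 0 of them passed with limma. Soat1, which esterifies cholesterol for storage, was at -0.26 and Plin2, a coat protein of lipid droplets, at -0.29. Vldlr, a lipoprotein receptor, was at 0.22, Scarb2 at 0.27 and Msr1, a scavenger receptor of macrophages, at -0.65. Pltp and Lpcat3, which remodel phospholipids of lipoproteins and membranes, were at 0.18 and 0.08. In the isoprenoid branch Coq2, Pggt1b and Fnta were at 0.13, 0.13 and 0.11. Among fatty acid genes Gpam was at 0.30, Fads2 at -0.37 and Acaca at -0.17. Ch25h, which makes an oxysterol, was at 0.89 with a standard error of 0.40, Cyp27a1 at 0.25 and Fdxr at 0.18.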

How the data were processed

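RNA of 3 control and 3 labelled deficient uterine samples was extracted with TRIzol, per the labels' protocols. The authors deposited FPKM per gene symbol, 1 column per sample, and 0 columns were left unmatched. The submitters' processing notes list build mm10 with DESeq2 1.24.0, STAR 2.7.0f and cutadapt 2.7. Their roles, the counting program, the annotation and strand were not given in the sources used here. FPKM depends on gene length and library sum, so abundant transcripts shift all other values.

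Differences were tested with limma 3.58.1 in R 4.3.3 (intensity trend) on log2(FPKM + 1), labelled deficient minus control, for 12500 genes (mean over the 6 libraries no lower than 1 FPKM), with Benjamini-Hochberg adjustment over all of them and a threshold of 0.05. The log2(FPKM + 1) scale understates changes of scarce genes. The code was tested on simulated data. Positions come from GENCODE M21 (GRCm38), near-identical stretches (95% over at least 200 bases) from BLAST 2.17.0 against its transcripts, and promoters from RefSeq. Named are all 28 genes, Pgr and, in further lists, genes among the 4 with the smallest p, some of which are not reported here. Alternatives covered pseudocount, filter, scaling, weights, replicate block and libraries left out. The genes and lists were chosen with earlier results of these data known.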

Additional observations from a re-analysis of the deposited data

How the results depend on the processing

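The number of all genes past the threshold, 417, was 1770 with array weights, 143 with the replicate number as a block, 1275 and 2 without the libraries numbered 3 or 2 of both groups, 123 without control 2 and deficient 3 together, and between 99 and 525 with 1 library left out. Of the 28 cholesterol genes, 0 passed except that 1, Abca1, did with array weights (0.45) and without the libraries numbered 3 (0.45). Of all genes tested, 14.2% and 10.2% passed in these settings. Their median of -0.18 was -0.022 without control 2 and deficient 3, and between -0.24 and -0.066 with 1 library left out. The median over all genes, 0.06, was 0.072 without control 2 and deficient 3, and between 0.037 and 0.074 with 1 library left out. The settings that left out both second libraries, or control 2 and deficient 3, were chosen after seeing the data. Control 2 and deficient 3 held the highest and lowest values of most of the 28 genes. The upward shift of most differences without them was therefore fixed by that choice.

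Of 526 differences of single genes over 19 alternatives, 503 kept their sign and side of the threshold and 21, of 8 genes, changed sign, none of them called. Without control 2 and deficient 3, Acat2 was at 0.12, Dhcr7 at 0.18, Mvd at 0.012, Sc5d at 0.14 and Stard4 at 0.12. Without both second libraries, Sqle was at 0.035 and Stard4 at 0.0090, and without those numbered 3 Sc5d was at 0.0076. Median-of-ratios scaling put Npc1 at -0.024 and Srebf1 at -0.010, quantile normalization put Npc1 at -0.012, and rescaling to a common sum put Sc5d at 0.0067. With 1 library left out, Acat2 ran from -0.20 to 0.013, Dhcr7 from -0.24 to 0.11, Npc1 from -0.0016 to 0.093, Sc5d from -0.18 to 0.057, Sqle from -0.34 to 0.038, Srebf1 from -0.017 to 0.14 and Stard4 from -0.23 to 0.090. Pgr was at -0.019 by the median of ratios, -0.0054 by quantiles, -0.19 without both second libraries and between -0.078 and 0.23 with 1 library left out. The cause was not tested.

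The scalings moved the median of all genes from 0.06 to 0.11 (common sum), -3.9e-05 (median of ratios) and 0.016 (quantile), and the genes called to 218 higher and 211 lower, 123 and 391, and 131 and 336, from 168 and 249. Same-numbered libraries did not deviate together over all genes (correlations -0.14, 0.079 and -0.13), so the numbers are not taken as pairs. Only the second libraries correlated best with their own number. Control 1 was closest to deficient 3 (0.15) and control 3 to deficient 1 (0.20). With the replicate block, 0 of the 28 passed, against 1.14% of the 12500 genes tested, and the smallest limma adjusted p was 0.076, for Idi1. At an unadjusted limma p under 0.05 there were 11 of the 28, against 2343 of the 12500. Mylip (adjusted p = 0.059) and Gramd1b (0.059) lost their calls under the block. Depth is not given, and 3 libraries per group limit the precision.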
